A study of Apis mellifera with 27 samples.

Results

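The genes described here are the 150 transcripts that fell furthest in a single laser capture of honey bee mushroom body, the colony 2 library of 06:00 on day 11, replicate 2, in which markers of Kenyon cells were also low. They were chosen by a measured value. Among genes known only by a LOC number, those averaging at least 50 CPM (the count over the library total, per 1000000 counts) over the 27 libraries were ranked by log2(CPM + 1) in that library minus the mean over the other 12 colony 2 libraries, and the 150 lowest of 4635 such genes (3.24%) were taken. Their low level in that library is therefore the rule and not a finding. What follows describes where else the same genes were low or high, in the 14 libraries of colony 1, which the difference did not use, and among the other 12 of colony 2, of which it used only the mean.

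Kenyon cells form the bulk of the mushroom bodies, paired neuropils of the insect brain in which odours, colours and other cues are joined and learned associations are stored. In the honey bee they fall into small, middle and large types that lie in layers of the mushroom body calyx and differ in the genes they express. Laser capture microdissection cuts a chosen area out of a tissue section under a microscope, so a sample holds whatever cells the cut area contained.

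Polyadenylated RNA was measured in captures enriched for small Kenyon cells from foragers of Apis mellifera trained to a feeding time. Every group shared this training and differed in time and colony alone, and the labels give no strain, genotype or age of the bees. Foragers were taken at 06:00, 10:00, 14:00, 18:00 and 22:00 on day 11 and at 02:00 and 06:00 on day 12, from 2 colonies whose behavioural experiments were run apart. Each time point and colony had 2 libraries, except 06:00 on day 11 in colony 2, of which 1 was analysed here. Whether the replicates are separate bees is not stated in the labels, so a p-value reflects no more than the spread among these libraries, and that spread may be technical.

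Libraries held 5589770 to 12277539 counts, with 8732841 to 12277539 in colony 1, and the library that chose the genes held 8833227, inside that range. On the first principal component of all genes, which carried 21.4% of the variance, 4 colony 2 libraries stood apart. These were both of 10:00 (scores of 94.7 and 66.0), the 06:00 day 11 library (77.6) and 14:00 replicate 1 (45.05), against 10.7 or less in the others. Counts of called genes that rest on the 3 of them used in the tests are given with and without each.

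In the 06:00 day 11 colony 2 library the 150 genes were lower than the colony 2 mean, with log2 differences from -3.42 to -1.79 and a median of -2.10. Over all 4635 genes that could have been chosen the median difference was -0.06. The lowest of all was LOC725646, with 8.60 CPM in this library and 52.7 to 145 CPM, median 110 CPM, in the other 12 of colony 2. LOC724238 followed with 6.11 CPM against 46.5 to 101 CPM, median 55.8 CPM. LOC100642173 had 6.23 CPM against 44.5 to 103 CPM, median 60.8 CPM. In each of these 3 genes the library lay below every other colony 2 library by several fold.

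The next 5 genes in the order were LOC725164, LOC408857, LOC107965041, LOC551043 and LOC724852. Their levels in the library were 36.5, 7.59, 32.0, 5.32 and 8.60 CPM, and their lowest levels in the other 12 colony 2 libraries were 195, 44.9, 153, 21.1 and 20.8 CPM. LOC724852 thus came closest to its own range elsewhere, because its level was already low in both colony 2 libraries of 10:00. At the limit the order was close. LOC411675, LOC408430 and LOC550655 were the last inside, with differences of -1.790, -1.787 and -1.787, and LOC408809, LOC413753 and LOC409701 the first outside, with -1.785, -1.783 and -1.781.

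**Figure D1:**
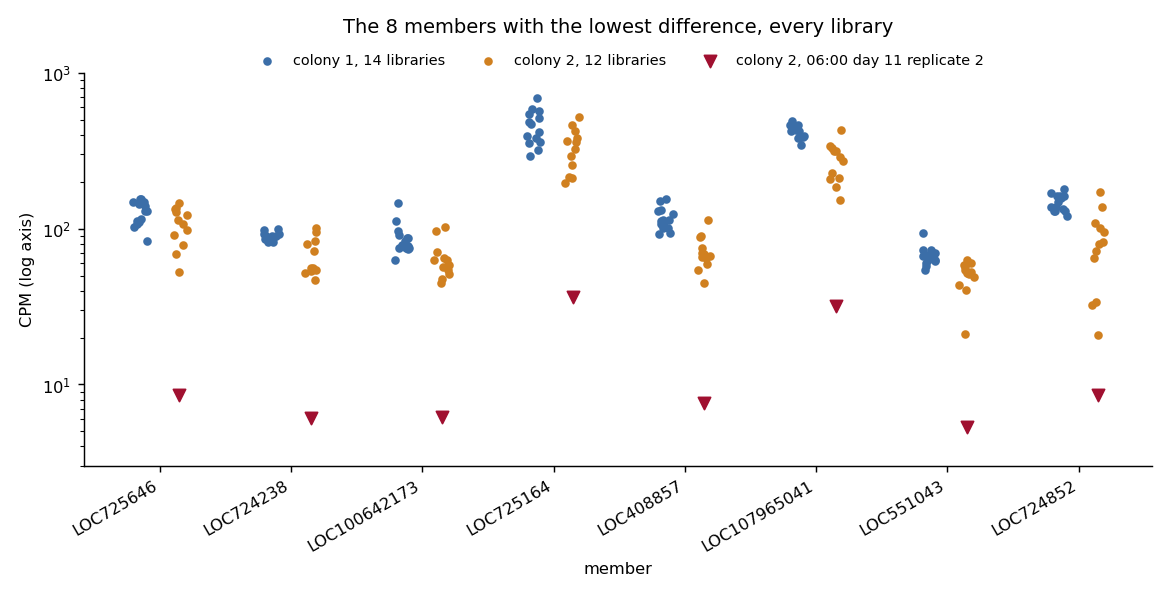
CPM (log axis) of the 8 genes with the lowest difference in each of the 27 libraries, one point per library, for colony 1, the other 12 colony 2 libraries and the 06:00 day 11 colony 2 library (triangle). The triangle lies below every point in all 8 genes, from 5.32 CPM for LOC551043 to 36.5 CPM for LOC725164.

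The level in colony 1, which had no part in the difference, shows how far the library lay from the usual range. Relative to the mean of the 14 colony 1 libraries the median gene of the 150 was lower by 2.45 on the log2 scale, or 5.47-fold, and the genes ranged from -3.94 (LOC724852) to -1.41 (LOC113218523). All 150 lay below all 14 colony 1 libraries, and 148 below all other 26 libraries. Of the 4635 genes, 46.6% lay below all 14 and 31.5% below all 26. The rule used this library, so nothing is read from these counts. LOC725518 and LOC100578547 were the exceptions, the first lower still in 14:00 replicate 1 of colony 2 and the latter in both colony 2 libraries of 10:00.

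Together the 150 genes took 1.14% of the counts of that library. In colony 1 they took 4.75% to 5.94% (5.35% ± 0.343, SD, n = 14) and in the other colony 2 libraries 3.67% to 6.27% (5.13% ± 0.792, SD, n = 12). Their share in the library was thus 21.4% of the colony 1 mean, and 19.3% without the 5 genes of highest count. In bulk tissue, fewer cells of a type and less RNA per cell cannot be told apart.

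The 5 reference genes, known from Kenyon cells, were read in the same library. Camkii, the calcium- and calmodulin-dependent protein kinase, had 1549 CPM in the 06:00 day 11 colony 2 library, against 2711 to 6661 CPM in the rest of colony 2 and 3453 to 5188 CPM in colony 1. Mblk-1, a transcription factor of large Kenyon cells, had 642 CPM against 928 to 2554 and 1082 to 1708 CPM. Tk, which encodes tachykinin neuropeptides, had 265 CPM against 752 to 1539 and 1001 to 1524 CPM. All 3 lay below every other library.

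E74, an ecdysone-regulated transcription factor, was likewise below every other library, at 82.4 CPM against 166 to 340 CPM in colony 2 and 176 to 318 CPM in colony 1. Ks-1, a noncoding RNA of small Kenyon cells, had 10.8 CPM, under the 12.1 to 64.3 CPM of colony 2 but within the 9.83 to 23.0 CPM of colony 1. The description of this capture as poor in Kenyon cell transcripts thus rests on 4 of the 5 reference genes against both colonies, and on Ks-1 against colony 2 alone. Of the 4635 genes 31.5% also lay below all other 26 libraries, as did 3 of the 6 general neuron genes matched. Such a low level was therefore not particular to Kenyon cell transcripts.

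Other markers moved in that library as well. The 6 general neuron genes that could be matched summed to 1815 CPM, under the 2029 to 3611 CPM of colony 2 and the 2227 to 2783 CPM of colony 1, although Syt1, a synaptic vesicle calcium sensor, had 955 CPM and lay within both ranges. The glial list was matched by 1 gene, the glutamate transporter Eaat-2, which had 205 CPM, above all other 26 libraries (28.7 to 144 CPM in colony 2, 39.8 to 169 CPM in colony 1). The 7 troponins of muscle summed to 275 CPM against 15.4 to 676 and 37.6 to 175 CPM, with 1 of them, TpnCIIb, at 0 counts. The 4 opsins of photoreceptors summed to 278 CPM against 61.0 to 399 and 42.1 to 176 CPM, none of them at 0. The 18 gland, fat body and hemolymph genes summed to 1972 CPM against 606 to 1918 and 391 to 1704 CPM, with 6 at 0, and Fabp and Hbg3 made up most of that sum at 1308 and 591 CPM. The part of other cells in the low level of the 150 genes was not tested.

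What the 150 genes encode is known here for only a few. All 150 matched a symbol of RefSeq's gene table of the assembly Amel_HAv3.1, which gives no products, and a synonym named just 2 of them. LOC726262 carries the synonym ac8, an adenylyl cyclase, the kind of enzyme that makes the messenger cyclic AMP. LOC551883 carries the synonyms Cav3 and Cav3a, a voltage-gated calcium channel of the low-voltage-activated class. Adenylyl cyclase had 195 CPM in the library that chose it, 563 to 1657 CPM (median 1192 CPM) in the rest of colony 2 and 1313 to 2126 CPM (median 1783 CPM) in colony 1. The calcium channel gene had 97.7 CPM there, and its levels elsewhere are given with its time course.

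Genes that carry a name could not be members, and 13 of the 162 that reached the same level minimum lay below the limit of the 150 by the same difference. They were named after their values were seen. Among them were receptors for biogenic amines, namely Dop1 and DopR2 for dopamine (-2.40 and -2.26 on the log2 scale), 5-HT1 for serotonin (-2.38) and TyrR for tyramine (-2.20). NLG-3, a neuroligin of synaptic adhesion (-2.62), Cac, a voltage-gated calcium channel (-2.11), the kinases Pkc (-2.07) and Cdk5 (-1.86), and Tk (-2.06) were also below it. The others were Kr (-2.46), Ancr-1 (-1.94), tra2 (-1.88) and Ef-1a-f1 (-1.80).

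By the counts they drew, with transcript length not taken into account, the leading members in colony 1 were LOC408804, LOC408951, LOC408430, LOC726262, LOC406096, LOC724220, LOC410353 and LOC410498. LOC408804 had 4430 to 5946 CPM in colony 1 (5282 ± 467 CPM, SD, n = 14) and 1510 CPM in the library that chose it. Relative to the colony 1 mean, that library was 8.82-fold lower for LOC726262 and 3.15- to 4.47-fold lower for the other 7. Over all 150 the mean CPM in colony 1 ran from 50.1 to 5282, with a median of 190 CPM, against 109 CPM for the 4635 genes.

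**Figure D2:**
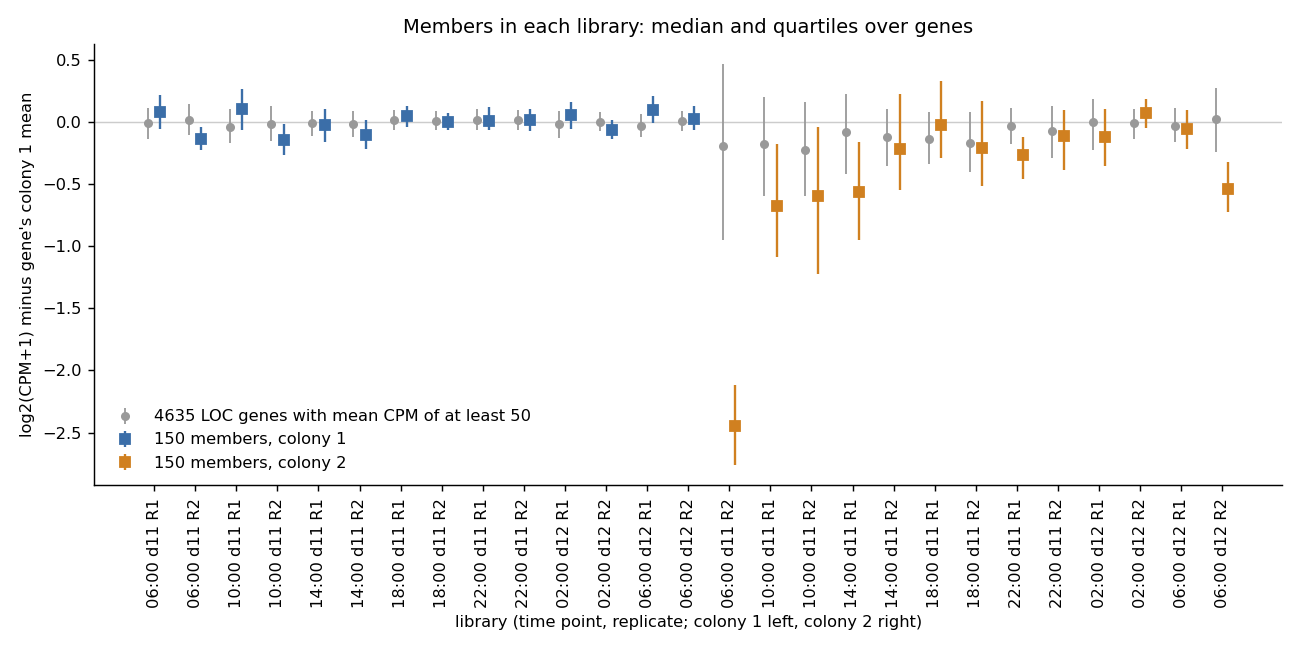
Median over the 150 genes (squares, bars from the lower to the upper quartile over genes) of log2(CPM + 1) minus the gene's own mean over the 14 colony 1 libraries, for each of the 27 libraries, with the same for the 4635 genes that could have been chosen (grey). Colony 1 lies between -0.15 and 0.11, 4 other colony 2 libraries lie between -0.68 and -0.54, and the library that chose the genes lies at -2.45.

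In colony 1 the median gene's deviation from its colony 1 mean ran from -0.15 to 0.11 on the log2 scale over the 14 libraries, against -0.04 to 0.02 for the 4635 genes. The 2 colony 1 libraries of 06:00 on day 11, the same hour as the library that chose the genes, had medians of 0.08 and -0.14. Both lay within the colony 1 range, replicate 2 near its lower end. With TMM scaling replicate 2 was the lowest of the 14, at -0.16. Below all other colony 1 libraries were 7 and 33 of the 150, against 11.9% and 8.69% of the 4635 genes. By time point means 06:00 on day 11 was the lowest colony 1 time for 47 of the 150 (31.3%, against 15.8% of the 4635). For 14:00 it was 45 (against 17.5%), and for 06:00 on day 12, the same hour, 3 (against 11.9%). Whether the hour had a part was not tested. LOC725646, for example, had 156 and 131 CPM on day 11, the former its highest in colony 1, and LOC724852 had 129 and 131 CPM. The spread over the 14 libraries was an SD of 0.18 on the log2 scale for the median member, against 0.15 for the median of the 4635 genes.

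In colony 2 the genes were more uneven. Outside the library that chose them the medians of the 12 libraries ran from -0.68 to 0.07, and 4 lay well below the rest. Replicate 1 of 10:00 was at -0.68, replicate 2 of 10:00 at -0.60, replicate 1 of 14:00 at -0.57 and replicate 2 of 06:00 on day 12 at -0.54. The medians of the 4635 genes in these libraries were -0.18, -0.22, -0.08 and 0.03. With TMM scaling the 4 medians of the 150 were -0.59, -0.47, -0.51 and -0.65, and that scaling moved the median of the 4635 genes by over 0.1 in 5 libraries and by at most 0.14.

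Against the 14 colony 1 libraries, 97 and 98 of the 150 genes lay below all of them in the 10:00 libraries of colony 2, where 43.9% and 46.8% of the 4635 genes did. In 14:00 replicate 1 the count was 96 of 150, with 34.6% of the 4635, and in 06:00 day 12 replicate 2 it was 111 of 150, with 23.6%. The partner libraries of the latter pair differed from them, with medians of -0.21 at 14:00 and -0.05 at 06:00 on day 12, and the SD over the 12 colony 2 libraries was 0.38 for the median member against 0.28 for the 4635 genes.

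The reference genes were read in the same 4 libraries. In 06:00 day 12 replicate 2 both were low: Camkii had 2711 CPM, Mblk-1 928 CPM and E74 166 CPM, each the lowest of the 12, and Tk had 777 CPM. In the 2 libraries of 10:00 Camkii had 5012 and 5692 CPM and Mblk-1 2357 and 2442 CPM, above the colony 2 medians of 4926 and 1711 CPM, while the medians of the 150 genes were -0.68 and -0.60. In 14:00 replicate 1 Camkii had 4465 CPM and Mblk-1 1582 CPM, below those medians and within the range of the other libraries. Tk had 840 and 752 CPM at 10:00 and 1131 CPM in 14:00 replicate 1, each under its colony 2 median of 1134 CPM. At 10:00 E74 (302 and 322 CPM) and Ks-1 (59.2 and 50.5 CPM) were above their colony 2 medians of 256 and 35.2 CPM. DopR2, another marker of large and middle Kenyon cells, had 192 and 211 CPM at 10:00, under its colony 2 median of 246 CPM. The 6 general neuron genes summed to 2965 and 3611 CPM at 10:00, against a colony 2 median of 2703 CPM, and to 2029 CPM in 06:00 day 12 replicate 2. In the 10:00 libraries Eaat-2 had 144 and 117 CPM, and the troponins summed to 676 and 183 CPM. The opsins summed to 360 and 326 CPM, and the gland, fat body and hemolymph genes to 1784 and 1918 CPM. All were above the medians of colony 2. In the same order, 14:00 replicate 1 had 142, 246, 128 and 1405 CPM, with only the opsins under the colony 2 median. For 06:00 day 12 replicate 2 the values were 131, 145, 399 and 1378 CPM, the opsins being the highest of the 27 libraries. By contrast, 18:00 replicate 2, where the median of the 150 was -0.21, had 58.3, 167, 139 and 1729 CPM. Its troponins and gland genes were also above the colony 2 medians. Whether these cells had a part in the level of the 150 genes was not tested.

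**Figure D3:**
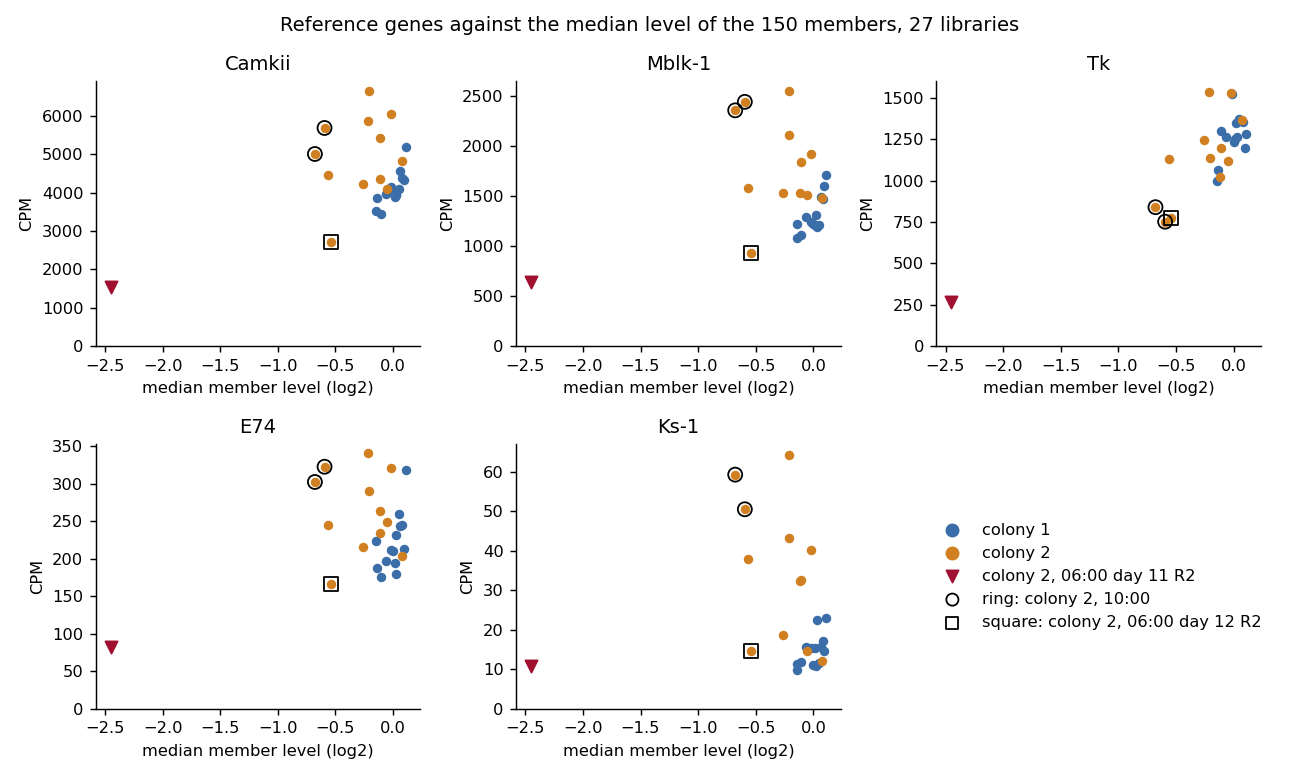
CPM of the 5 reference genes (vertical axes, one panel each) against the median level of the 150 genes on the log2 scale, relative to colony 1, one point per library. The 2 colony 2 libraries of 10:00 (rings) have low member levels, -0.68 and -0.60, with Camkii at 5012 and 5692 CPM, while 06:00 day 12 replicate 2 of colony 2 (square) has both low, -0.54 and 2711 CPM.

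The time course in colony 1 asked which of the genes differed among the 7 time points in libraries that the rule's difference did not use. All 150 passed the filter on low counts, which their level minimum had secured. The shares over all genes, here and in the tests below, include genes under that minimum. The part of level in any excess of calls among the 150 was not tested. By edgeR's quasi-likelihood test with Benjamini-Hochberg adjustment over all 9632 genes tested, 18 of the 150 (12.0%) changed, where 3.82% of all genes did. Of the 18, 9 had their highest mean at 10:00, as did 41.8% of all 368 genes called. A single 24 h cosine passed for 14 of the 150 (9.33%), against 5.40% of all genes, and 12 genes passed both tests, which were made on the same libraries.

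LOC409286 had 61.3 and 57.6 CPM at 06:00 on day 11 and 135 and 117 CPM at 10:00. It then had 97.0 and 101 CPM at 14:00, 83.2 and 106 CPM at 18:00, 77.0 and 74.9 CPM at 22:00, 64.9 and 67.3 CPM at 02:00 and 74.2 and 63.9 CPM at 06:00 on day 12. Both libraries of 10:00 lay above all 12 others. The range of its time point means was 1.07 on the log2 scale (adjusted p = 0.000748), and its cosine peaked at 13.7 h with a peak 1.88 times the trough (adjusted p = 0.0174).

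LOC411176 followed a similar course, from 87.0 and 102 CPM at 06:00 on day 11 to 178 and 167 CPM at 10:00, with 102 to 150 CPM from 14:00 on (range 0.86 on the log2 scale, adjusted p = 0.00204). LOC725415 had 842 and 719 CPM at 10:00 and 477 and 468 CPM at 02:00 (range 0.72, adjusted p = 0.00790). In both genes the 2 libraries of 10:00 were above all others of colony 1. LOC725404 peaked later, with 87.1 and 86.1 CPM at 14:00 and 40.3 and 44.5 CPM at 06:00 on day 11 (range 1.01, adjusted p = 0.0123).

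LOC100642173, one of the lowest by the rule, had 147 and 112 CPM at 10:00 in colony 1 and 62.8 to 96.8 CPM at all other times (range 0.90 on the log2 scale, adjusted p = 0.0103). Its 2 libraries of 10:00 did not overlap with the others. In colony 2 it had 70.7 and 65.2 CPM at 10:00, within the 44.5 to 103 CPM of the later times.

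Some of the genes moved the opposite way. LOC100578547 had 150 and 90.9 CPM at 06:00 on day 11, 18.5 and 11.5 CPM at 10:00, and 33.6 to 104 CPM afterwards, so that both libraries of 10:00 lay below all others (range 2.92 on the log2 scale, adjusted p = 0.00847). In colony 2 it had 0 counts in 10:00 replicate 1, which allows up to 0.537 CPM (3 counts, counting error only). It had 8.97 CPM in replicate 2 of 10:00, against 34.7 to 147 CPM from 14:00 on. The gene was nevertheless called in colony 2 neither over time nor at 10:00 against the later times. LOC408331 was highest at 06:00 on day 12 with 426 and 402 CPM and lowest at 14:00 with 232 and 272 CPM (range 0.71, adjusted p = 0.0389), and its cosine peaked at 1.66 h. Its time call was lost in 9 of 20 alternative fits and its cosine call in 5 of 19. LOC100576879 ran from 119 and 156 CPM at 14:00 to 247 and 213 CPM at 22:00 (range 0.74, adjusted p = 0.0256).

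LOC551883, the Cav3 calcium channel gene, had 424 and 316 CPM at 10:00, 396 and 333 CPM at 14:00 and 275 and 265 CPM at 06:00 on day 12 in colony 1. Its cosine peaked at 13.8 h, with a peak 1.48 times the trough (adjusted p = 0.0259). Of the 14 genes with a cosine, 11 peaked between 9 and 16 h, as did 56.7% of all 520 genes called, and LOC725518 peaked at 1.498 h.

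**Figure D4:**
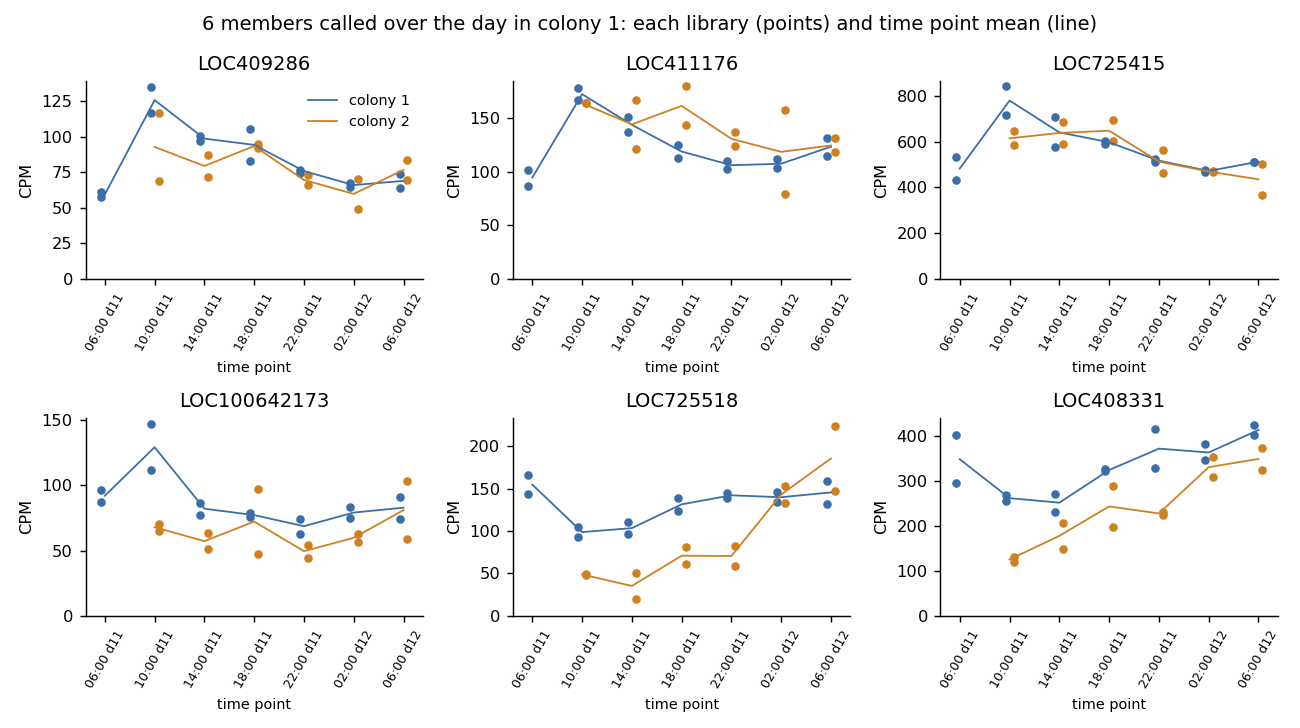
CPM of 6 of the 150 genes that changed over the day in colony 1, at the 7 time points, one point per library with lines through the time point means, for colony 1 and colony 2. LOC409286, LOC411176, LOC725415 and LOC100642173 have their highest colony 1 mean at 10:00, while LOC725518 and LOC408331 are low at 10:00 and 14:00. The colony 2 library of 06:00 on day 11, which chose the genes, is not drawn.

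With single libraries left out, the counts over all genes called over time and by the cosine in colony 1 moved. Whether the 150 moved more than all genes was not tested. How many of the 150 were called over time in colony 1 also depended on the fit. Without replicate 1 of 14:00 it was 9, without replicate 2 of 14:00 it was 11 and without replicate 1 of 22:00 it was 10, and in a fit of 26 libraries whose spread both colonies share it was 0 (20 of all genes). The cosine count was 5 without replicate 1 of 14:00, 8 without replicate 2 of 14:00 or replicate 2 of 10:00, and 24 without replicate 2 of 02:00. Counts varied less between colony 1 libraries of a time point, with a common biological coefficient of variation of 0.178, than between those of colony 2, with 0.372. None of the 5 reference genes was called in either test (adjusted p of 0.387 or more).

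For each colony, 10:00 was set against the mean of the 5 later times. The contrast was chosen because both colony 2 libraries of 10:00 were already known to be low in the 150 genes, so its result in colony 2, and the difference between the colonies, describe that low level and are not independent evidence of it. In colony 1, 15 of the 150 differed at 10:00, against 5.43% of all genes, 11 of them higher and 4 lower, against 3.33% and 2.10%. The median log2 difference over the 150 was 0.03, against 0.02 over all genes, and its sign rested on which library of 10:00 was used. Without replicate 1 of 10:00 it was -0.16, against -0.002 over all genes, and without replicate 2 it was 0.16, against -0.02. The genes higher at 10:00 included LOC100642173 (0.77, SE 0.111, adjusted p = 0.000403), LOC409286 (0.69, SE 0.101), LOC411176 (0.57, SE 0.0893), LOC725415 (0.55, SE 0.0957), LOC409000 (0.53, SE 0.108), LOC413558 (0.48, SE 0.129), LOC410133 (0.48, SE 0.0965) and LOC408857 (0.46, SE 0.0821). The 4 lower ones were LOC100578547 (-2.001, SE 0.285), LOC725646 (-0.45, SE 0.115), LOC725518 (-0.38, SE 0.0985) and LOC413698 (-0.37, SE 0.0962). The adjusted p of these ran up to 0.0338, and LOC413558 lost its call in 9 of 20 alternative fits. In the 26-library fit 2 of the 150 were called.

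In colony 2 the same contrast was lopsided. Of the 150 genes 44 differed, against 11.7% of all 9645 genes tested, with 41 lower at 10:00 and 3 higher, against 6.53% and 5.12%. The median log2 difference was -0.38 over the 150 and -0.03 over all genes, and 111 of the 150 lay below 0, as did 51.9% of all genes. The rule took the mean of these 12 libraries but made no use of how they differ among themselves. The 41 log2 differences ran from -1.99 to -0.53. With single libraries left out the count over all genes moved, not always in step with the count of the 150 given next. Whether the 150 moved more than all genes was not tested. Without replicate 1 of 10:00 the count of lower and higher genes together was 25, and without replicate 2 it was 22, against 44 with both, while without 14:00 replicate 1 it was 51.

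LOC726262, the adenylyl cyclase gene ac8, had 563 and 570 CPM at 10:00 in colony 2 and 882 to 1657 CPM (median 1250 CPM) at the later times. Both libraries of 10:00 lay below all 10 later ones, and the log2 difference was -1.09 (SE 0.176, adjusted p = 0.00132). In colony 1 the gene had 1800 and 1491 CPM at 10:00, within the 1313 to 2126 CPM of the later times.

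LOC724852 had 33.8 and 20.8 CPM at 10:00 in colony 2 and 32.5 to 173 CPM (median 88.4 CPM) later, where 14:00 replicate 1 overlapped with 10:00 (log2 difference -1.64, SE 0.307, adjusted p = 0.00423). LOC409953 had 144 and 124 CPM at 10:00 and 191 to 479 CPM later, with no overlap (-1.11, SE 0.155, adjusted p = 0.000730). LOC726633 had 87.8 and 69.8 CPM against 94.1 to 262 CPM (-1.12, SE 0.181, adjusted p = 0.00132). These 3 genes had their lowest time point mean of colony 2 at 10:00.

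LOC409707 had 52.1 and 57.3 CPM at 10:00 and 98.1 to 168 CPM later (-1.14, SE 0.192, adjusted p = 0.00172), and LOC409781 had 65.5 and 62.2 CPM against 94.8 to 235 CPM (-1.42, SE 0.294, adjusted p = 0.0105). LOC413224 had 50.4 and 30.3 CPM against 54.5 to 182 CPM (-1.42, SE 0.367, adjusted p = 0.0316). All 3 were below every later library. LOC410133 had 54.9 and 52.5 CPM against 51.2 to 175 CPM, and so overlapped with 1 later library, 14:00 replicate 1 (-1.06, SE 0.301, adjusted p = 0.0379). LOC413224 and LOC410133 lost their calls in 5 and 6 of 19 alternative fits.

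The 3 genes higher at 10:00 in colony 2 stand against the rest. LOC551883, the Cav3 calcium channel gene, had 506 and 639 CPM at 10:00 and 158 to 522 CPM later (0.84, SE 0.163, adjusted p = 0.00373). LOC102654959 had 320 and 493 CPM against 129 to 356 CPM (0.91, SE 0.187, adjusted p = 0.00621), and LOC410353 had 2328 and 2892 CPM against 849 to 2612 CPM (0.71, SE 0.181, adjusted p = 0.0167). In each the groups overlapped.

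Of the reference genes in the same contrast, Mblk-1 (0.59, SE 0.184, adjusted p = 0.0435) and Ks-1 (1.03, SE 0.295, adjusted p = 0.0295) were higher at 10:00 in colony 2. Ks-1 had 59.2 and 50.5 CPM at 10:00 there. Camkii (0.23, SE 0.187, adjusted p = 0.453), E74 (0.39, SE 0.173, adjusted p = 0.148) and Tk (-0.53, SE 0.192, adjusted p = 0.0795) did not pass.

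Over the 6 time points tested in colony 2, 33 of the 150 genes (22.0%) changed, against 5.53% of all genes. Of the reference genes, Ks-1 (adjusted p = 0.0182) and Mblk-1 (adjusted p = 0.0469) also passed this test. Camkii, E74 and Tk did not (adjusted p of 0.1105 or more). By time point means 10:00 was the lowest time for 86 of the 150 (57.3%), as it was for 39.2% of the 4635 genes, and 18:00 and 02:00 were the highest for 60 and 57 (40.0% and 38.0%, against 10.6% and 22.8%). The count over all genes also moved when libraries were left out, and whether the 150 moved more than all genes was not tested. With both libraries of 10:00 left out, 11 of the 150 changed over the 5 times that remained (151 of all genes). Without replicate 1 or replicate 2 of 10:00 alone it was 30 or 29, without replicate 1 of 06:00 on day 12 it was 60, and without 14:00 replicate 1 it was 40. With 14:00 replicate 1 and 06:00 day 12 replicate 2 both left out, as chosen after the data were seen, 52 changed.

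Among the genes called in colony 2, several of the widest courses were low in the day and high towards the next morning. LOC725518 had 48.8 and 48.4 CPM at 10:00, 19.8 and 50.3 CPM at 14:00, and 148 and 224 CPM at 06:00 on day 12 (range of the means 2.37 on the log2 scale, adjusted p = 0.00633). Its level of 19.8 CPM in 14:00 replicate 1 was under the 20.2 CPM of the library that chose it. LOC100577623 had 65.8 and 60.2 CPM at 14:00 and 225 and 625 CPM at 06:00 on day 12, its 2 libraries of that time far apart (range 2.74, adjusted p = 0.00758).

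LOC409953, LOC726633, LOC100577707 and LOC409282 were lowest at 10:00 and highest at 02:00, with ranges of 1.80, 1.68, 1.599 and 1.58 (adjusted p of 0.00197 to 0.00878). LOC100577707, for example, had 95.7 and 110 CPM at 10:00 and 307 and 321 CPM at 02:00. The calcium channel gene LOC551883 ran the other way, from its highest mean at 10:00 to 230 and 158 CPM at 06:00 on day 12 (range 1.56, adjusted p = 0.00321).

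The difference between the colonies in the 10:00 contrast was tested itself, in 1 fit of the 26 libraries. In 22 of the 150 genes the difference passed, against 6.32% of all 10038 genes. In all 22 the 10:00 level relative to later was lower in colony 2, against 4.70% of all genes lower and 1.61% higher. The median over the 150 was -0.40, against -0.05 over all genes, and without replicate 1 of 10:00 in colony 1 it was -0.22, against -0.04. Of the 41 genes lower at 10:00 in colony 2, 19 were among the 22. Of the same 41, 1 was also called lower and 1, LOC410133, higher at 10:00 in colony 1. Over all genes tested in colony 1, 2.10% were called lower and 3.33% higher, so nothing is read from these 2 counts. The 2 colonies share no libraries.

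LOC551848 differed most. It had 60.4 and 62.2 CPM at 10:00 in colony 1, within its later range of 53.6 to 74.97 CPM, and 16.3 and 9.29 CPM at 10:00 in colony 2, below its later range of 32.8 to 78.6 CPM (difference between the colonies -1.94, SE 0.288, adjusted p = 0.000696). LOC410133 had 203 and 185 CPM at 10:00 in colony 1, above all later libraries (129 to 173 CPM), so that its contrasts went opposite ways (difference -1.53, SE 0.327, adjusted p = 0.00884). For LOC724852 the difference was -1.52 (SE 0.317, adjusted p = 0.00706), and for the adenylyl cyclase gene LOC726262 it was -1.07 (SE 0.203, adjusted p = 0.00306).

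The count of 22 fell to 5 without replicate 1 of 10:00 in colony 1 (182 of all genes) and rose to 50 with 14:00 replicate 1 and 06:00 day 12 replicate 2 of colony 2 both left out (1168 of all genes). Without replicate 1 or replicate 2 of 10:00 in colony 2 it was 24 or 23, of which 16 and 11 were among the 22, and without 14:00 replicate 1 of colony 2 it was 30. None of the 5 reference genes passed this test (adjusted p of 0.362 or more). With single libraries left out the count over all genes moved as well, and whether the count of members moved more was not tested.

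**Figure D5:**
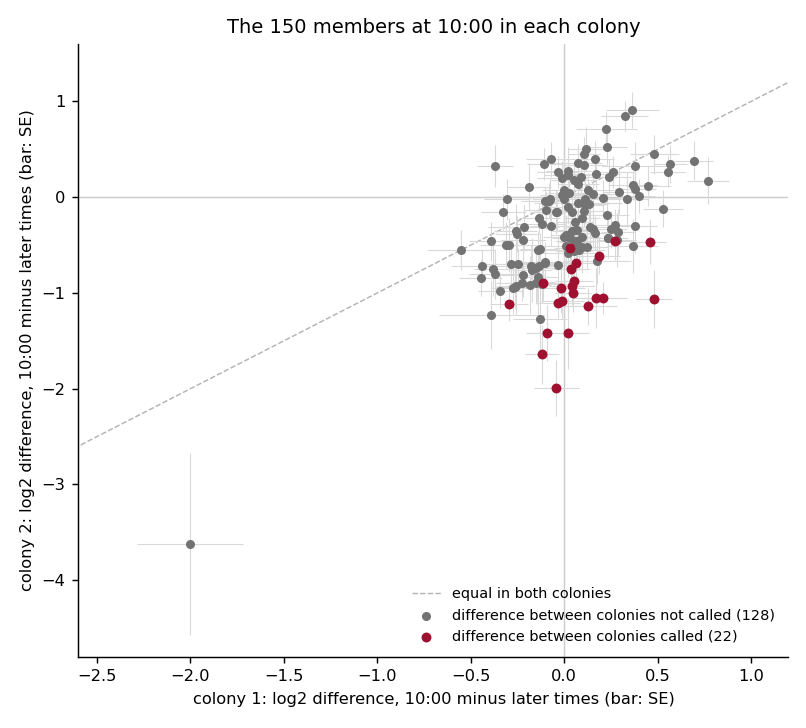
Log2 difference of 10:00 minus the later times in colony 1 (horizontal) and colony 2 (vertical) for the 150 genes, with bars for the SE of each. The 22 genes whose difference between the colonies passed the test (red) all lie below the line of equal values, and the point furthest down is LOC100578547, at -2.001 in colony 1 and -3.62 in colony 2, whose difference did not pass (adjusted p = 0.243).

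Between the colonies as a whole only values are given, since the rule used the colony 2 mean. Over the 26 libraries 116 of the 150 genes (77.3%) had a lower mean log2(CPM + 1) in colony 2, as did 65.4% of the 4635 genes, with a median of -0.31 against -0.10. The lowest were LOC411414 (-1.29), LOC724852 (-1.02), LOC100577623 (-0.86), LOC411009 (-0.85) and LOC410178 (-0.85). LOC411414 had 37.9 to 110 CPM (median 78.3 CPM) in colony 1 and 13.2 to 64.6 CPM (median 30.01 CPM) in colony 2, so that the colonies overlapped. The highest were LOC551385 (0.48), LOC410353 (0.47), LOC102654959 (0.46), LOC113218523 (0.40) and LOC410336 (0.38). LOC551385 had 255 to 392 CPM in colony 1 and 235 to 673 CPM in colony 2. In all 5 of these the lowest of the 12 colony 2 libraries was 06:00 day 12 replicate 2.

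Across the 6 tests 79 of the 150 genes (52.7%) were called in none, against 78.9% of the 9393 genes tested in all 6, and 4 (2.67%) were called over time in both colonies, against 0.979%. In the RefSeq order of genes some of the 150 stood next to each other, such as LOC107965041 with LOC411414, LOC724852 with LOC102654200, LOC413940 with LOC410133 and LOC552513 with LOC408857. Whether the counting used strand is not stated in the sources used here, and reads of overlapping neighbours could have been assigned to either gene.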

How the data were processed

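The deposited table holds raw counts per gene, whole numbers of reads that the authors assigned to each gene, with 27 libraries used; 1 further library was not analysed here. Libraries were stranded, per the labels' protocols, and Trimmomatic, FastQC, STAR, featureCounts and DESeq2 are named, without versions, per the submitters' processing notes. The build, annotation and strand setting are not given in the sources used here. Reads matching several places could raise or lower single genes, which the counts do not show.

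The members and lists were chosen with earlier results of these data known. CPM was the count over the column sum, with a pseudocount of 1 on the log2 scale, for the rule and for levels. Tests used edgeR 4.0.16 in R 4.3.3 (glmQLFit, robust, and glmQLFTest) with TMM scaling, filterByExpr with the time point as group (colony and time point where both colonies were fitted) and Benjamini-Hochberg adjustment over all genes tested, called under 0.05. The SE was taken as the log2 difference, without sign, divided by the root of the F statistic. Colony 1 (14 libraries) and colony 2 (12) were fitted apart, and the difference between colonies in a fit of 26 libraries with 13 group means; the library that chose the genes entered none. On simulated counts in which 200 genes were changed 2-fold, 172 were recovered for time, 187 for 10:00 and 175 for the cosine in colony 1 (9461, 9461 and 9471 genes tested), 72 for time and 117 for 10:00 in colony 2 (9368 genes tested), and 115 for the difference between colonies (9801 genes tested). Unchanged genes were 19 of the 191 called for time, 9 of 196 for 10:00 and 7 of 182 for the cosine in colony 1. In colony 2 they were 12 of 84 for time and 11 of 128 for 10:00. For the difference between colonies they were 5 of 120. The share of unchanged genes was thus above the threshold of 0.05 for time in both colonies and for 10:00 in colony 2. It was under 0.05 in the other tests. Alternatives were DESeq2 1.42.0, limma-voom (limma 3.58.1), DESeq2 size factors, no filter, each library left out, and the replicate number as a block. Replicate numbers were not taken to pair the libraries, for which every r had to be over 0.1 (r of -0.0726 to 0.261 over 21 pairs of groups in colony 1, with 5 over 0.1, and -0.181 to 0.173 over 15 pairs in colony 2, with 1 over 0.1). The chi-square per degree of freedom between replicates was 11.1 or more, more than sampling noise in every pair. Total counts ran from 5589770 to 12277539, and intervals and floors cover counting error only. Members were named by rank: the lowest differences, the limit, the highest counts, the widest called changes in each test (mean CPM of at least 50) and the extremes between colonies. Product groups could not be formed, since no product names were at hand.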

Additional observations from a re-analysis of the deposited data

Results flagged for a closer look

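The difference between the colonies in the contrast of 10:00 with later times was singled out because it was tested itself. It passed for 22 of the 150 genes, against 6.32% of all 10038 genes. Both colony 2 libraries of 10:00 were known to be low in the 150 genes when the contrast was chosen. The result is therefore not independent evidence of that low level. The named ones, as colony 2 minus colony 1 on the log2 scale, were LOC551848 (-1.94), LOC410133 (-1.53), LOC724852 (-1.52), LOC413224 (-1.44), LOC409781 (-1.32), LOC409707 (-1.26), LOC100577707 (-1.25) and LOC100577623 (-1.21). LOC100577623 lost the call in 24 of 32 alternative runs and LOC413224 in 17 of 32, while LOC551848, LOC724852 and LOC100577707 lost it in 0 of 32. For LOC100577707 the 10:00 libraries had 359 and 276 CPM in colony 1, within the 230 to 372 CPM of later times, and 95.7 and 110 CPM in colony 2, below all later libraries (142 to 321 CPM). The 2 colony 2 libraries behind these contrasts held 5589770 and 6242597 counts and stood apart over all genes, and the part of capture, depth or colony was not tested.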

How the results depend on the processing

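Of 349 alternative values for counts, medians and shares, 284 stayed within 1.5 times the value given or within the spread and 65 moved; of 1177 values for named genes, 135 lost a call and 0 changed direction. Over time in colony 1 the count of members called (of all genes) was 8 (160) with limma-voom, 36 (942) with DESeq2, 0 (20) in the 26-library fit and 37 (790) with the replicate block, and 587 of all genes without a filter; leaving out 1 library gave 9 to 24 (226 to 428). At 10:00 in colony 1 it was 28 (815) with the replicate block, 2 (78) in the 26-library fit and 12 to 20 (308 to 624) with 1 library left out. The cosine gave 35 (964) with DESeq2, 27 with the replicate block and 5 to 24 (237 to 683) with 1 left out. Time in colony 2 gave 82 (1559) without a filter, 58 (1375) with DESeq2, 77 (2435) in the 26-library fit, 326 of all genes with limma-voom, 11 (151) without both 10:00 libraries, 52 without 14:00 replicate 1 and 06:00 day 12 replicate 2, and 23 to 60 (286 to 812) with 1 left out. At 10:00 in colony 2 all genes gave 1714 without a filter and 2719 in the 26-library fit; members ran from 22 to 52 (676 to 1391) with 1 left out. The difference between colonies gave 12 (381) with limma-voom, 964 of all genes with DESeq2, 50 (1168) without the same 2 libraries, and 5 to 32 (182 to 1267) with 1 left out; without 10:00 replicate 1 of colony 1 it was 5. With the replicate block the counts of colony 2 and of the difference were 26, 35 and 21, within 1.5 times. Of the 150 members, 150 were kept with TMM scaling, 141 with a pseudocount of 5, 138 against the colony 2 median, 129 against all other 26 libraries, and 114 with a minimum of 20 CPM or against colony 1. The cause of these moves was not tested. The chosen library has no replicate here, and with 2 libraries per group and none tied to a bee, small changes could be missed.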
